A study of Homo sapiens with 19 samples.

Results

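The enhancer barcode of the plasmids with the minimal promoter pAPOBEC3F was read in QUASARR-seq, in which 1 DNA element on a plasmid drives a promoter read-out (barcode paBC) and an enhancer read-out (barcode eaBC) at the same time. All elements of the pAPOBEC3F eaBC table with DNA reads above 0 were taken, which gave 2699 elements at 1507 loci (1322 in the orientation named fwd and 1377 named rev), of 3422 element names in all tables of the series. The RNA group held 2 libraries of the eaBC transcript and the DNA group 2 libraries of the eaBC on plasmid recovered from the cells. Both groups came from the human leukaemia cell line K-562, electroporated with 1 plasmid pool (20 µg per electroporation) that carried the minimal promoters pGAPDH, pMYC and pAPOBEC3F, and harvested after 6 h. As the element sits on a plasmid that was transiently present, its values do not describe the element at its own place in the genome. The protocol describes technical replicates within biological ones, and which of these the numbers 1 and 2 stand for is not stated, so p-values measure only the spread between these libraries.

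An enhancer is a stretch of DNA that raises transcription from a promoter at a distance and, by the classical definition, does so in either orientation. In a reporter assay the transcript carries a barcode, and RNA over DNA of that barcode gives the activity of the linked element per plasmid copy. APOBEC3F encodes a cytidine deaminase of the innate defence against retroviruses, and here only a minimal promoter of that name was used, as the transcription start on which an element could act. Many active promoters and enhancers can do both tasks, which is the question the paired barcodes address. Element names start with letters (KSSAT, TRE5GCCC, TRE6_HRHP and others) whose meaning the labels do not give, and they were used below only as names of 29 classes.

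The RNA libraries were shallow. They held 200722 and 217209 reads, against 773037 and 759171 reads in the DNA libraries. The median element had 49 and 53 RNA reads in replicates 1 and 2, against 205 and 203 DNA reads. Under 10 RNA reads were found for 9.93% of the elements in replicate 1 and 9.11% in replicate 2, against 0.482% and 0.630% of the elements for DNA. The promoter read-out of the same plasmids had 1679872 and 1802390 RNA reads.

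The log2 ratio of RNA over DNA was taken within each replicate after adding 0.5 reads to each value, and is given below as mean ± SD (n = 2 replicates). Across the 2699 elements the ratios of replicates 1 and 2 had r = 0.800 and rho = 0.709, as a description across elements that share libraries. The promoter read-out gave r = 0.984 in the same way over 2703 elements. The spread between replicates narrowed with RNA reads: the root mean square SD was 0.97 for the 75 elements under 10 RNA reads (both libraries summed), 0.47 for the 474 elements with 20 to 49, and 0.12 for the 103 elements with 500 or more. Read counts alone give 1.16, 0.41 and 0.10 in the same bins, so the measured spread was near that of counting error. Reads without molecular identifiers are not independent molecules, and these values and the intervals below cover counting error only.

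**Figure D1:**
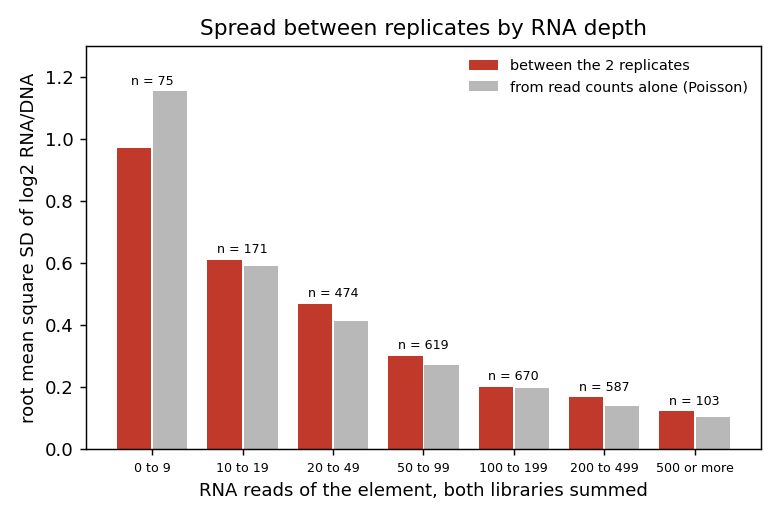
Root mean square SD of log2 RNA/DNA between the 2 replicates (red bars) and the SD that Poisson counting alone gives (grey bars), by the RNA reads of an element summed over both libraries. The spread between replicates was 0.97 under 10 reads and 0.12 at 500 reads or more, and the red and grey bars lie close to each other in every bin.

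Elements of good depth could still disagree. Of 1360 elements with at least 100 RNA reads, 2 differed by 1 or more on the log2 scale between replicates, and both were singled out after their values were seen. TRE6_020S0063.fwd had 168 and 46 RNA reads, against 649 and 627 DNA reads, and its ratio was 0.40 in replicate 1 and -1.60 in replicate 2. TRE6_060S0015.rev had 113 and 78 RNA reads, against 80 and 101 DNA reads, with ratios of 2.85 in replicate 1 and 1.78 in replicate 2. TRE6_060S0015.rev was called higher in RNA all the same, while TRE6_020S0063.fwd did not pass the test (limma's adjusted p = 0.282).

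Most elements gave an enhancer ratio near 0, and a minority gave far more RNA than DNA. In a limma fit over all elements with Benjamini-Hochberg adjustment, 780 of 2699 elements (28.9%) were higher in RNA at an adjusted p under 0.05 and 207 (7.67%) were lower. Those called higher had a median log2 ratio of 0.94, and those called lower one of -0.56, against 0.09 over all elements. The ratio was at least 1 for 367 elements, at least 2 for 86 and at least 3 for 20, while 39 were at -1 or below. The authors' deposited table, with 2695 elements tested, held 810 (30.1%) higher and 199 (7.38%) lower at the same threshold. The elements called higher held 49.0% and 48.5% of the RNA reads, against 30.2% and 30.2% of the DNA reads.

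The place of 0 comes from the authors' scaling of the libraries and not from a spiked standard. With TMM scaling of the recovered reads in edgeR the median of all elements was -0.03 in place of 0.09, and 682 elements were called higher and 438 lower, so that 60.9% of the calls were higher against 79.0% as reported. Centring on the median of all elements gave 686 higher and 332 lower (67.4% higher). The number of lower calls also depended on single libraries. It was 495 without RNA replicate 1, 479 without RNA replicate 2, 49 without DNA replicate 1 and 33 without DNA replicate 2. Such a fit takes its spread only from the 2 libraries of the other molecule and assumes that the lone library varies like them.

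**Figure D2:**
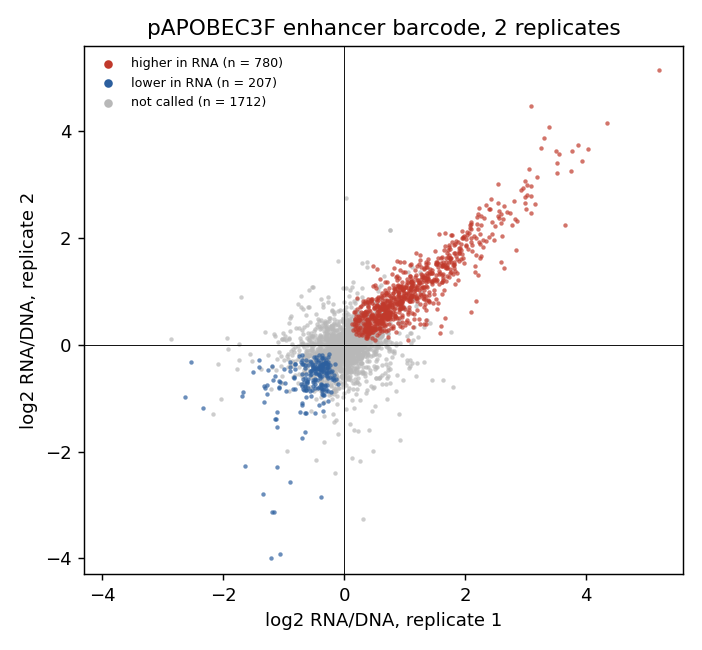
log2 RNA/DNA of the 2699 elements in replicate 1 (horizontal) and replicate 2 (vertical), with 780 elements called higher in RNA in red, 207 called lower in blue and the others in grey. The red points follow the diagonal up to 5.22 and 5.16, while the blue points below -1 scatter widely.

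The highest enhancer ratios came from a few loci of different classes. KSSAT0006.fwd had 586 and 573 RNA reads, against 80 and 71 DNA reads. Its log2 ratio was 5.19 ± 0.04 (limma's adjusted p = 6.24e-13), the highest of all elements, and both RNA values lay far above both DNA values although DNA was deeper by total reads. KSSAT0004.rev had 377 and 374 RNA reads, against 94 and 93 DNA reads, which made 4.25 ± 0.14 (limma's adjusted p = 6.51e-12). These 2 elements were the only ones at 4 or above.

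TRE6_HRHR0016.fwd had 280 and 280 RNA reads, against 87 and 97 DNA reads (3.85 ± 0.25). TRE5GCCC0106.fwd was much deeper, with 1219 and 1299 RNA reads against 427 and 432 DNA reads (3.80 ± 0.09). Its other orientation, TRE5GCCC0106.rev, held the most RNA reads of any element, 1980 and 2084, against 741 and 744 DNA reads (3.70 ± 0.09). The locus therefore gave nearly the same ratio either way round.

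The next 6 called elements with at least 20 summed DNA reads, 1 per locus, were KSSAT0014.rev (3.74 ± 0.48), TRE5GCCC0006.rev (3.69 ± 0.35), TRE6_HRHP0032.fwd (3.57 ± 0.09), TRE6_HRHR0051.fwd (3.57 ± 0.02), KSSAT0024.rev (3.48 ± 0.31) and TRE5GCLR0031.rev (3.47 ± 0.07). Between KSSAT0014.rev and TRE5GCLR0031.rev the order is not resolved, since the means lie within the SD of KSSAT0014.rev. KSSUT0008.rev had a ratio of 3.78 ± 0.98 and was called, but rests on 2 and 2 RNA reads, against 1 and 0 DNA reads, and was singled out after its values were seen.

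The element named RSV was high in both orientations. RSV.fwd had 248 and 308 RNA reads, against 138 and 155 DNA reads (3.17 ± 0.04, limma's adjusted p = 1.7e-10). RSV.rev had 530 and 539 RNA reads, against 455 and 461 DNA reads (2.47 ± 0.14, limma's adjusted p = 2.72e-11). Of the elements whose names are a number alone, 0 of 35 were higher and 5 (14.3%) were lower, with a median ratio of 0.00, against 28.9% higher and 7.67% lower over all elements.

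The lowest ratios rest on very few RNA reads. TRE5NGCC0153.fwd had 3 and 0 RNA reads, against 41 and 35 DNA reads. RNA over DNA over both replicates was 0.188 with a 95% exact binomial counting interval of 0.0379 to 0.571. KNGAT0154.rev had 2 and 0 RNA reads, against 26 and 33 DNA reads, and its ratio of 0.161 had an interval of 0.0191 to 0.610. For these elements only a depletion of uncertain size was measured. TRE5SPNL0016.rev and KUUAT0130.rev, with 1 RNA read each, and TRE5NGCC0088.fwd, with 2, were also called, with intervals from 0.00326 to 0.786, from 0.00345 to 0.835 and from 0.0239 to 0.774. No RNA read in either library was seen for 5 elements, which had 1 to 16 DNA reads. KNGAT0075.fwd had the most of these, 11 and 5. A count of 0 allows up to 3 reads, so no fold is given for them, and 0 of these 5 were called.

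Deeper elements gave smaller decreases that were better measured. KNGAE0099.fwd had 110 and 109 RNA reads, against 864 and 785 DNA reads (-0.65 ± 0.05, limma's adjusted p = 7.36e-05). KNGAT0002.fwd had 75 and 110 RNA reads, against 677 and 677 DNA reads (-0.64 ± 0.25, limma's adjusted p = 0.00123). KNGAE0016.fwd had 74 and 116 RNA reads, against 704 and 693 DNA reads (-0.66 ± 0.33, limma's adjusted p = 0.00201). RNA over DNA pooled over both replicates was 0.633, 0.651 and 0.648 in these elements. They were chosen for the fewest RNA reads among the elements deepest in DNA. Low ratios of like size follow from that choice and are no result about these elements. TRE6_020S0010.rev, chosen by the same rule, was at 0.688. The share of lower calls was greater at greater DNA depth: over 4 bins of about equal size from low to high DNA reads it was 3.12%, 7.59%, 8.85% and 11.1%. The share of higher calls was 25.1%, 30.1%, 30.7% and 29.8%.

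Around 20 summed DNA reads counting intervals were wide, as 3 elements show that did not pass the test. KNGUT0043.rev had 4 and 6 RNA reads, against 10 and 10 DNA reads, and its ratio of 2.38 had a counting interval of 0.996 to 5.33 (limma's adjusted p = 0.0644). KSSAT0101.fwd had 4 and 3 RNA reads, against 11 and 9 DNA reads, with 1.67 and an interval of 0.596 to 4.10. Just below that depth KUUUT0148.fwd had 3 and 2 RNA reads, against 9 and 9 DNA reads, with 1.32 and an interval of 0.384 to 3.70. Shallow elements could still be called: 4 elements under 20 summed DNA reads were called higher.

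The classes of names differed widely in enhancer read-out. Among the classes with at least 30 elements KSSAT had the highest median and the highest share called: 95 of its 121 elements were higher in RNA and 0 lower, with a median log2 ratio of 1.00, against 28.9% and 7.67% of all elements and a median of 0.09. KSUAT had the next highest share called, with 74 of 116 higher and 0 lower, and a median of 0.75. In KSUUT, whose name differs from KSUAT in 1 letter, 36 of 126 were higher and 5 lower (median 0.09). The median element had 139 RNA reads in KSSAT, 115.5 in KSUAT and 115.5 in KSUUT, against 329, 369.5 and 543 DNA reads.

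The TRE6 classes with H in their names were also high, and the medians of TRE6_HRHP and TRE6_HPHP lay above that of KSUAT. TRE6_HRHP had 28 of 55 higher and 0 lower (median 0.88), TRE6_HPHP 25 of 45 higher and 0 lower (median 0.80), and TRE6_HRHR 23 of 49 higher and 3 lower (median 0.64). These are shallow classes, with a median of 69, 69 and 50 RNA reads per element, against 101 over all elements. With 1 element per locus the medians were 0.70 in TRE6_HRHP, 0.93 in TRE6_HPHP and 0.59 in KSUAT. The order of TRE6_HRHP and TRE6_HPHP is therefore not resolved. TRE6_060S (40 of 102 higher, median 0.25) and TRE6_020S (41 of 114 higher, median 0.10) lay closer to the whole.

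KUUAE was mixed, with 75 of 162 higher and 6 lower (median 0.30), and KUUUT had 50 of 145 higher and 2 lower (median 0.20). The TRE5GC classes held single very high elements over a low middle. TRE5GCCC had a median of 0.17 but 14 of its 235 elements at 2 or above, against 12 of 121 in KSSAT, and TRE5GCLR had a median of 0.14 and 8 of 217 at 2 or above. KUUAT was near 0, with 24 of 147 higher and 9 lower (median 0.05), yet held KUUAT0049.fwd with 418 and 442 RNA reads, against 262 and 245 DNA reads (3.01 ± 0.01).

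The 5 lowest classes with at least 30 elements all had a median below 0. KNGUT had 0 of 142 higher and 26 lower (median -0.22), KNGAE 5 of 147 higher and 37 lower (median -0.25), and KNGAT 2 of 129 higher and 22 lower (median -0.25). TRE5NGCC had 14 of 228 higher and 37 lower (median -0.17), and TRE5SPNN 4 of 47 higher and 7 lower (median -0.27). TMM scaling moves the median of all elements down, and a shift down cannot change the sign of a median below 0. It is therefore no check of these 5 signs, and class medians under it are not given here. The positive medians of KSUUT, TRE6_020S, TRE5GCNC, KUUAT and the elements named by a number alone are smaller than that shift. Single elements of the low classes went the other way: TRE5NGCC0010.fwd had 21 and 26 RNA reads, against 23 and 21 DNA reads (2.34 ± 0.16, limma's adjusted p = 3.59e-05).

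**Figure D3:**
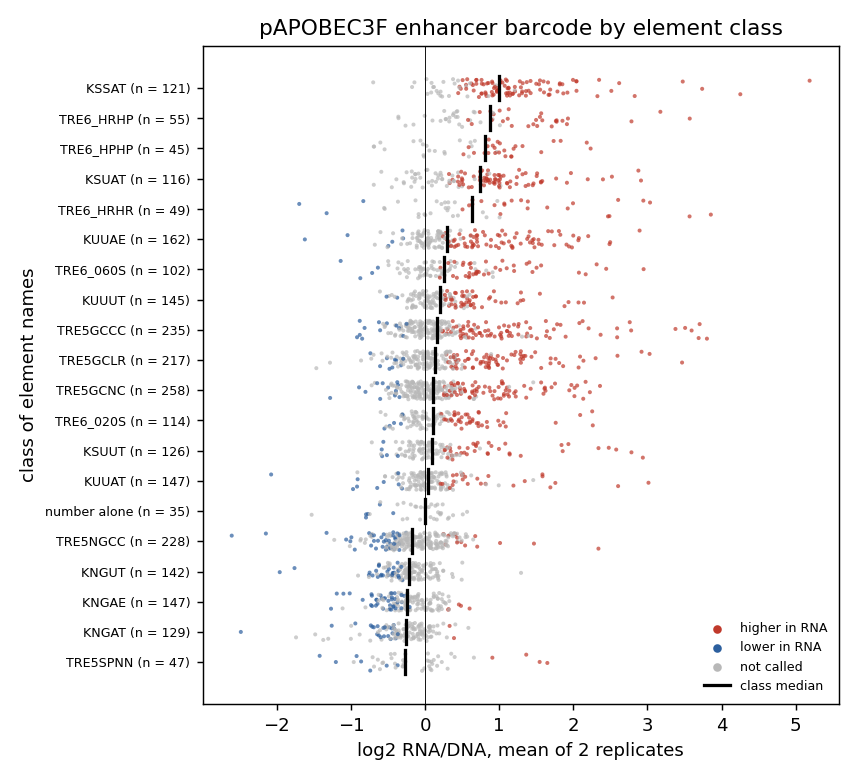
log2 RNA/DNA of every element (mean of 2 replicates) in the 20 classes with at least 30 elements, ordered by median, with elements called higher in RNA in red, called lower in blue and not called in grey. The median of KSSAT lies at 1.00 and that of TRE5SPNN at -0.27, and TRE5GCCC reaches 3.80 from a median of 0.17.

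Both orientations of a locus were measured for 1192 loci, which allows a test of the orientation within the same libraries. The fwd and rev ratios had r = 0.672 across loci, and 887 loci differed by less than 0.5 on the log2 scale. In 249 loci both orientations were called higher, in 71 the fwd orientation alone and in 122 the rev orientation alone, which is no test of the difference. The difference itself, fwd minus rev, passed the limma test in 62 loci (5.20%), with fwd higher in 26 (2.18%) and rev higher in 36 (3.02%). At an unadjusted p under 0.05 there were 258 loci. An edgeR interaction test, chosen after the data were seen, called 135 loci, which included all 62. The count was 365 without RNA replicate 1, 394 without RNA replicate 2, and 6 without DNA replicate 1 as well as without DNA replicate 2.

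KSSAT0006 had the largest difference in favour of fwd, 4.74 ± 0.54 (limma's adjusted p = 0.000237). Against the 586 and 573 RNA reads of its fwd element, the rev element had 49 and 36 RNA reads and 139 and 158 DNA reads, a ratio of 0.45 ± 0.58 that did not pass the test. KSSAT0004 had the largest difference in favour of rev, -4.43 ± 0.02 (limma's adjusted p = 5.36e-05). Its fwd element had 79 and 73 RNA reads and 431 and 391 DNA reads, a ratio of -0.17 ± 0.12. The 2 highest enhancer elements were therefore far lower when turned round. KSSAT0004.fwd was near 0, while KSSAT0006.rev was at 0.86 in replicate 1 and 0.03 in replicate 2. Whether KSSAT0006.rev differs from 0 is not resolved.

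TRE6_HRHR0066 lay on opposite sides of 0 in its 2 orientations. Its fwd element had 191 and 187 RNA reads, against 167 and 131 DNA reads, and was called higher (2.60 ± 0.09). Its rev element had 34 and 33 RNA reads, against 315 and 263 DNA reads, and was called lower (-0.83 ± 0.01). The difference was 3.44 ± 0.07 (limma's adjusted p = 0.000237). Of the 1192 loci, 5 had 1 orientation called higher and the other lower.

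The other large differences in favour of fwd were at TRE6_HRHR0016 (3.45 ± 1.24, with 5 RNA reads in rev), TRE6_HRHP0016 (2.35 ± 0.71), TRE5GCLR0027 (2.05 ± 0.66) and TRE6_HRHR0042 (2.02 ± 0.05). Those in favour of rev were at KSUAT0040 (-3.11 ± 0.76, with 13 RNA reads in fwd), TRE6_060S0055 (-2.98 ± 1.20), KSSAT0014 (-2.59 ± 0.45), KSUAT0083 (-2.41 ± 0.03) and KSUAT0001 (-2.38 ± 0.16). The rev element of TRE6_060S0055 was shallow, with 23 and 17 RNA reads against 9 and 16 DNA reads. KSUAT0083 shows the rev case at good depth in 1 orientation only, with 12 and 16 RNA reads in fwd, and 406 and 461 in rev.

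By class, the difference was called in 10 of 56 KSSAT loci, 8 of 53 KSUAT loci, 5 of 19 TRE6_HRHP loci and 5 of 17 TRE6_HRHR loci, against 5.20% over all loci. It was called in 0 of 108 TRE5GCCC loci and 3 of 77 KUUAE loci. Across loci the fwd and rev ratios had r = 0.91 in TRE5GCCC and 0.90 in KUUAE, against 0.12 in KSSAT and 0.17 in KSUAT. An r within a class can rest on a few extreme loci. Both orientations were called higher in 37 of 56 KSSAT loci and 24 of 53 KSUAT loci. For TRE5GCCC and KUUAE these counts were 29 of 108 and 34 of 77. These are descriptions, since the classes also differ in spread and depth.

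**Figure D4:**
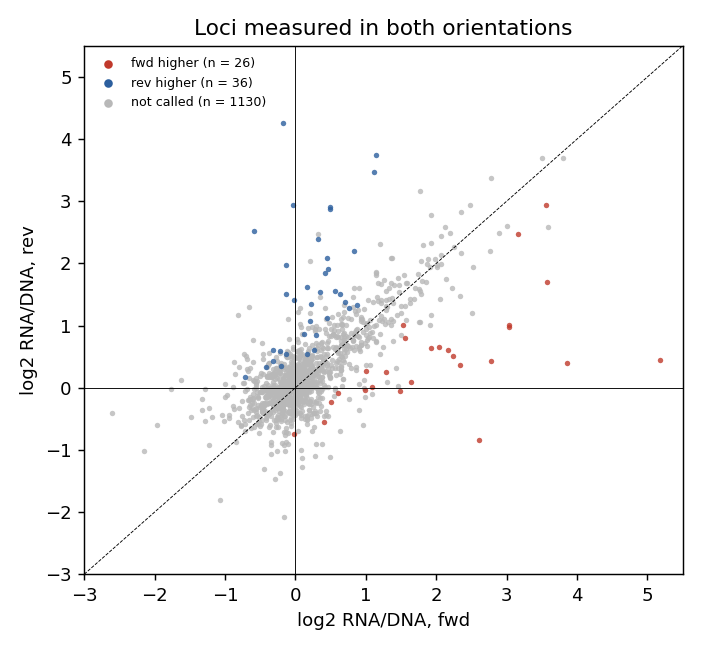
log2 RNA/DNA of the fwd element (horizontal) and the rev element (vertical) of 1192 loci, with 26 loci where fwd was higher in red, 36 where rev was higher in blue and the others in grey, and the dashed line of equality. KSSAT0006 lies at 5.19 in fwd and 0.45 in rev, and KSSAT0004 at -0.17 in fwd and 4.25 in rev.

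The promoter barcode of the same plasmids gives a second orientation difference for these loci, from other libraries. In it 682 of 1192 loci (57.2%) passed the same test, with fwd higher in 424 (35.6%) and rev higher in 258 (21.6%). Of the 62 loci called in the enhancer read-out, 52 (83.9%) had the same sign in the promoter read-out, against 671 (56.3%) of all 1192. The promoter difference was called in the same direction for 48 of the 62, in the opposite direction for 9 and in neither for 5.

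KSSAT0004 shows how the read-outs differed in size. As a promoter its fwd element was high, at 3.79 ± 0.13, and its rev element at 5.91 ± 0.03, while as an enhancer the same elements were at -0.17 ± 0.12 and 4.25 ± 0.14. In 34 of the 62 loci 1 orientation was called higher as an enhancer and the other not. In 29 of these 34 both orientations were called higher as promoters. Of all 62 loci, which include these 34, 53 had both orientations called higher as promoters. The share over all 1192 loci is not given here, so neither count is read as particular to these loci. By single elements, 1361 of the 2699 shared elements were called higher as promoters. KSSAT0014 ran in opposite directions, with 1.15 ± 0.03 in fwd and 3.74 ± 0.48 in rev as an enhancer, and 4.90 ± 0.29 in fwd and 3.60 ± 0.17 in rev as a promoter. KUUAE0022 also did, with 1.53 ± 0.02 in fwd and 1.01 ± 0.13 in rev as an enhancer, and 2.20 ± 0.03 in fwd and 3.52 ± 0.10 in rev as a promoter.

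All 2699 elements were also in the promoter table. The enhancer and promoter ratios had r = 0.764 and rho = 0.771 across elements, as a description of 2 read-outs of the same plasmids and cells. The enhancer ratios spanned less: their interquartile range was 0.73 on the log2 scale, against 2.07 for the promoter ratios, and their 95th percentiles were 1.69 and 3.80. The tables were scaled separately, so no element was tested between them. As promoters 1364 of 2703 elements (50.5%) were called higher and 811 (30.0%) lower. Of the 780 called higher as enhancers, 744 (95.4%) were called higher as promoters, which was 54.7% of the 1361 promoter calls among shared elements.

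The share called as enhancers climbed with the promoter ratio. It was 0% of the 142 elements with a promoter ratio below -1, 2.02% of the 989 between -1 and 0, 18.3% of the 649 between 0 and 1 and 51.3% of the 343 between 1 and 2. It was then 71.9% of 285, 87.0% of 169 and, at 4 or above, 92.6% of 122. Median RNA reads of the enhancer barcode were 26 in the lowest of these bins and 231.5 in the highest, and the part of depth in the shares was not tested.

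**Figure D5:**
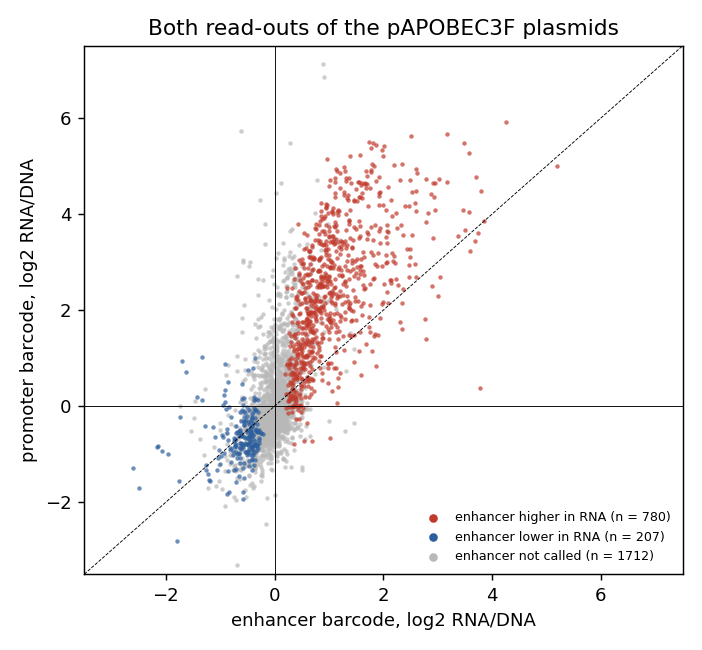
log2 RNA/DNA of 2699 elements in the enhancer read-out (horizontal) and the promoter read-out (vertical), with elements called higher as enhancers in red, called lower in blue and not called in grey, and the dashed line of equality. Most red points lie above the line, and KSSAT0006.fwd lies close to it at 5.19 as an enhancer and 5.00 as a promoter.

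Some strong promoters gave little enhancer signal. TRE5GCCC0144.fwd was at 0.42 ± 0.20 as an enhancer, percentile 70.9 of all elements, and at 3.80 ± 0.12 as a promoter, percentile 94.9. KSUAT0157.fwd was at 0.54 ± 0.32 as an enhancer and 3.60 ± 0.05 as a promoter, and KUUAT0157.fwd at 0.23 ± 0.02 and 2.47 ± 0.02. They were taken only from elements called higher as enhancers, so their enhancer call was fixed by that choice. As promoters they were called higher too. KSSAT0004.fwd, outside that choice, was at 3.79 ± 0.13 as a promoter and -0.17 ± 0.12 as an enhancer. It had 79 and 73 RNA reads in the enhancer read-out and was not called there. TRE6_060S0005.rev, chosen after its values were seen, was at 6.86 ± 0.20 as a promoter and at 0.92 ± 0.77 as an enhancer, where it had 7 and 14 RNA reads and was not called.

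The converse, taken only from elements called higher as enhancers, was found at lower levels. TRE5NGCC0041.rev had 43 and 47 RNA reads, against 112 and 102 DNA reads, and was at 1.01 ± 0.05 as an enhancer (limma's adjusted p = 0.000469) and -0.67 ± 0.17 as a promoter. TRE6_060S0068.rev, with 23 and 25 RNA reads, was at 0.69 ± 0.23 as an enhancer (limma's adjusted p = 0.0348) and -0.72 ± 0.22 as a promoter. TRE5GCNC0138.fwd was at 0.37 ± 0.00 as an enhancer (limma's adjusted p = 0.0234) and -0.79 ± 0.07 as a promoter. KSUUT0136.fwd, deeper with 207 and 215 RNA reads against 457 and 455 DNA reads, was at 1.14 ± 0.10 as an enhancer and 0.06 ± 0.07 as a promoter. In all, 9 of the 780 elements called higher as enhancers were called lower as promoters. Of the 207 called lower as enhancers, 11 were called higher as promoters. Of all 2699 shared elements 811 were called lower and 1361 higher as promoters. Counts this small can hold false calls at an adjusted p under 0.05, which was not tested.

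The 5 classes with the highest medians, of those with at least 30 elements, were the same in both read-outs. KSSAT had a median of 1.00 as enhancers and 3.31 as promoters, KSUAT 0.75 and 2.68, and TRE6_HRHP 0.88 and 2.76. KNGAT had -0.25 and -0.64. TRE5SPNN, the lowest of these classes as enhancers (-0.27), had 4 of 47 called higher as enhancers and 18 of 47 as promoters. Of all 2699 shared elements, 780 were called higher as enhancers and 1361 as promoters. The enhancer read-out of TRE5SPNN was shallow, with a median of 25 RNA reads per element, against 101 over all elements. The part of depth in these counts was not tested.

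The same elements were read with the minimal promoters pMYC and pGAPDH in the same RNA and DNA libraries. Those tables share their libraries with pAPOBEC3F and were scaled separately, so values are given side by side with no test. Among 2284 elements shared with pMYC, 652 were called higher with pAPOBEC3F and 908 with pMYC, with a median of 116 RNA reads per element for pAPOBEC3F and 215 for pMYC. Among 2604 shared with pGAPDH, 746 were called higher with pAPOBEC3F and 640 with pGAPDH, with a median of 105 and 1707 RNA reads. Of all elements of each table, 28.9% were called higher with pAPOBEC3F, 39.4% with pMYC and 23.4% with pGAPDH, and 7.67%, 7.45% and 19.3% lower. The interquartile range of the shared elements was 0.68 with pAPOBEC3F and 0.72 with pMYC, and 0.71 with pAPOBEC3F and 0.32 with pGAPDH.

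Among classes with at least 30 shared elements KSSAT had the highest median with pMYC, as with pAPOBEC3F, while with pGAPDH it came after TRE6_HRHP (0.37). Of 107 KSSAT elements shared with pMYC, 83 were called higher with pAPOBEC3F (median 0.96) and 96 with pMYC (median 1.18). Of 117 shared with pGAPDH, 92 were called higher with pAPOBEC3F (median 1.00) and 74 with pGAPDH (median 0.25). KSSAT0006.fwd stood at 5.19 ± 0.04 with pAPOBEC3F, 4.78 ± 0.12 with pMYC and 1.76 ± 0.06 with pGAPDH, among the highest of each table.

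Shifts of rank between minimal promoters were taken only among elements called higher with pAPOBEC3F. Of these, KUUAT0075.rev ranked far higher with pAPOBEC3F than with pGAPDH. It was at 1.35 ± 0.19 with pAPOBEC3F (109 and 124 RNA reads, against 241 and 198 DNA reads) and -0.32 ± 0.09 with pGAPDH. KSUAT0074.rev, at 1.51 ± 0.00 and -0.18 ± 0.38, and KSUAT0029.fwd, at 0.85 ± 0.01 and -0.25 ± 0.17, did so too. KSUAT0029.fwd was also high with pMYC, at 1.53 ± 0.03. KSUAT0022.rev ranked lower with pAPOBEC3F, at 0.37 ± 0.14, than with pMYC, at 1.08 ± 0.18, and pGAPDH, at 0.57 ± 0.09. Against pMYC, KSUAT0114.rev gained in rank, but its 0.79 ± 0.45 with pAPOBEC3F and -0.04 ± 0.74 with pMYC had overlapping SDs.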

How the data were processed

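QUASARR-seq libraries of K-562 cells were used, 2 RNA and 2 DNA libraries of the eaBC, with the paBC libraries of the same pool beside them. The submitters' processing notes name fastp, edgeR, limma and build hg38; the aligner and the barcode matching are not given in the sources used here. Each table deposited by the authors holds a signal per library (reads times 1 factor per column, of unstated origin). In pAPOBEC3F eaBC, 100% of the values were whole multiples of 1 step per column (tolerance 1e-06), which was taken as 1 read. The log2 fold changes and p-values in the authors' deposited table were used only as an alternative, which called 810 elements higher and 199 lower of 2695; their deposited score columns were not used.

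From these, log2((reads + 0.5) × factor) was fitted with limma 3.58.1 (lmFit, eBayes with trend) in R 4.3.3, RNA against DNA, over all 2699 elements, and fwd minus rev over 1192 loci, with Benjamini-Hochberg adjustment and a threshold of 0.05. As the files hold signal from which whole reads were recovered, edgeR 4.0.16 on those reads (796 elements higher, 228 lower) and DESeq2 1.42.0 were alternatives. The fits were also run on simulated data, and the outcome is not given here. Intervals are exact Clopper-Pearson ones at 95%. Descriptions used pandas 2.3.3 and scipy 1.17.1 in Python 3.11.15, and figures matplotlib 3.10.9. Named elements have at least 20 summed DNA reads. They were the 10 highest and lowest called (1 per locus) and the extremes of each class of at least 30. The 6 largest orientation differences each way were added. Rank shifts against the other tables were taken only among elements called higher as enhancers with pAPOBEC3F. The largest were kept, 6 each way for the promoter read-out and 4 for pMYC and pGAPDH. RSV, elements near 20 DNA reads and the 5 with the fewest RNA reads among the deepest in DNA completed the list. Part of these are named. Members, classes and this rule were chosen with earlier results of these data known. Element sequences and positions were not used here.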

Additional observations from a re-analysis of the deposited data

How the results depend on the processing

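The number of elements called higher (780) stayed within 1.5 times under every alternative, from 531 to 1008 with 1 library left out, except that 357 remain with an absolute log2 difference of at least 1. The number called lower (207) was 112 in limma without trend, 70 at an adjusted p under 0.01, 26 at an absolute log2 difference of at least 1, 332 when centred on the median of all elements, 438 with edgeR and TMM, and 33 to 495 with 1 library left out. The number of loci with an orientation difference (62) was 26 without trend, 20 at an adjusted p under 0.01, 35 at an absolute difference of at least 1, 135 with the edgeR interaction and 6 to 394 with 1 library left out. Voom weights and the edgeR interaction were chosen after the data were seen. The agreement of replicates (r = 0.800) was 0.816 with at least 50 summed DNA reads and 0.813 with 1 read added. Where the cause is not in the alternative's own construction, it was not tested.

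The labels do not say that a replicate number pairs an RNA with a DNA library, and the deviations of RNA and DNA replicate 1 from their group means had r = -0.04 over 2618 elements. With the replicate number as a block, 787 elements were called higher, 220 lower and 43 loci by orientation. Over 2045 values of named elements under the alternatives, 219 lost their call, 20 gained one and 0 of the called ones changed sign. Over 865 values of the 62 loci 240 lost the call and 0 changed sign. The stricter thresholds, the read filters, the fit without trend and the replicate block keep the main estimate, so under these no sign could change. Values of 1 replicate alone were not tested, so they could not lose a call. Under 20 RNA reads, summed over both libraries, stood behind 21 of the 207 elements called lower, against 75 elements under 10 reads and 171 with 10 to 19 among all 2699.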
